A study of Mus musculus with 2 samples.

Results

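The major histocompatibility complex (MHC) genes of the mouse, which carry the prefix H2-, and the genes that load their products with peptides were measured in the adrenal gland. The set was defined by name: every gene whose symbol begins with H2-, 45 in all, plus B2m, Cd74, Ciita, Tap1, Tap2, Tapbp, Nlrc5, Psmb8 and Psmb9. That gave 54 of 55536 annotated genes, 50 of them on chromosome 17. Total RNA was sequenced from adrenal glands of male B6CASTF1/J mice, first-generation hybrids of C57BL/6J and the wild-derived strain CAST/EiJ, at 25 days of age with no treatment named. There was 1 group of 2 libraries, each from 300 ng of RNA with ribosomal RNA reduced and ERCC spike-in transcripts added. The labels leave the source animals unclear: by biosample replicate 1 came from animal 3 and replicate 2 from animal 4, by library both came from animal 3, and the donor label is shared. Reads of both parental haplotypes were counted against 1 reference annotation, and the tables do not divide them by parent.

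MHC class I molecules pair a heavy chain with beta-2-microglobulin, encoded by B2m, and show peptides from inside the cell to CD8 T cells and natural killer cells. Proteasomes cut these peptides, the TAP transporter carries them into the endoplasmic reticulum, and tapasin helps to load them. Class II molecules pair an alpha with a beta chain and show peptides from endosomes to CD4 T cells, mostly on macrophages, dendritic cells and B cells, with the invariant chain Cd74 guarding the empty groove. Most nucleated cells carry class I, whereas parenchymal cells of endocrine glands normally carry little class II.

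The libraries stood apart in genes of other tissues, so both values are given throughout. Each held about the same number of expected counts, 35283841 in replicate 1 and 35156690.03 in replicate 2. The 6 hepatocyte markers summed to 25.8 TPM (a level scaled by transcript length and library size) in replicate 1 and to 18863 TPM in replicate 2, with Alb at 16.3 and 11949 TPM and Apoa2 at 2.97 and 2362 TPM. Clec4f and Cd5l, markers of the Kupffer cells of the liver, were at 0.12 and 9.64 TPM and at 0.12 and 8.22 TPM, and the 4 Kupffer markers summed to 0.48 and 21.7 TPM. The skeletal muscle markers went the other way, from 917 to 1.62 TPM in sum, with Acta1 at 425.6 and 0.07 TPM and Mylpf at 246.9 and 1.46 TPM. Adrenal cortex markers summed to 10251 and 5752 TPM, led by Hsd3b1 and Star, and chromaffin markers, led by Chgb and Chga, to 1596 and 1084 TPM, so the labelled tissue was present in both libraries.

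Of the 54 genes, 24 reached a TPM of 1 in both libraries, 13 had 0 counts in both, and 5 more had under 10 counts in total. Together the 54 genes held 0.0541% of all TPM in replicate 1 and at 0.121% in replicate 2. B2m was the most abundant in both libraries, ranking 239 of 55536 genes by mean TPM. H2-K1 followed in replicate 1 and H2-Q10, just above H2-K1, in replicate 2. The plot of levels by library shows the members averaging 1 TPM or more.

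**Figure D1:**
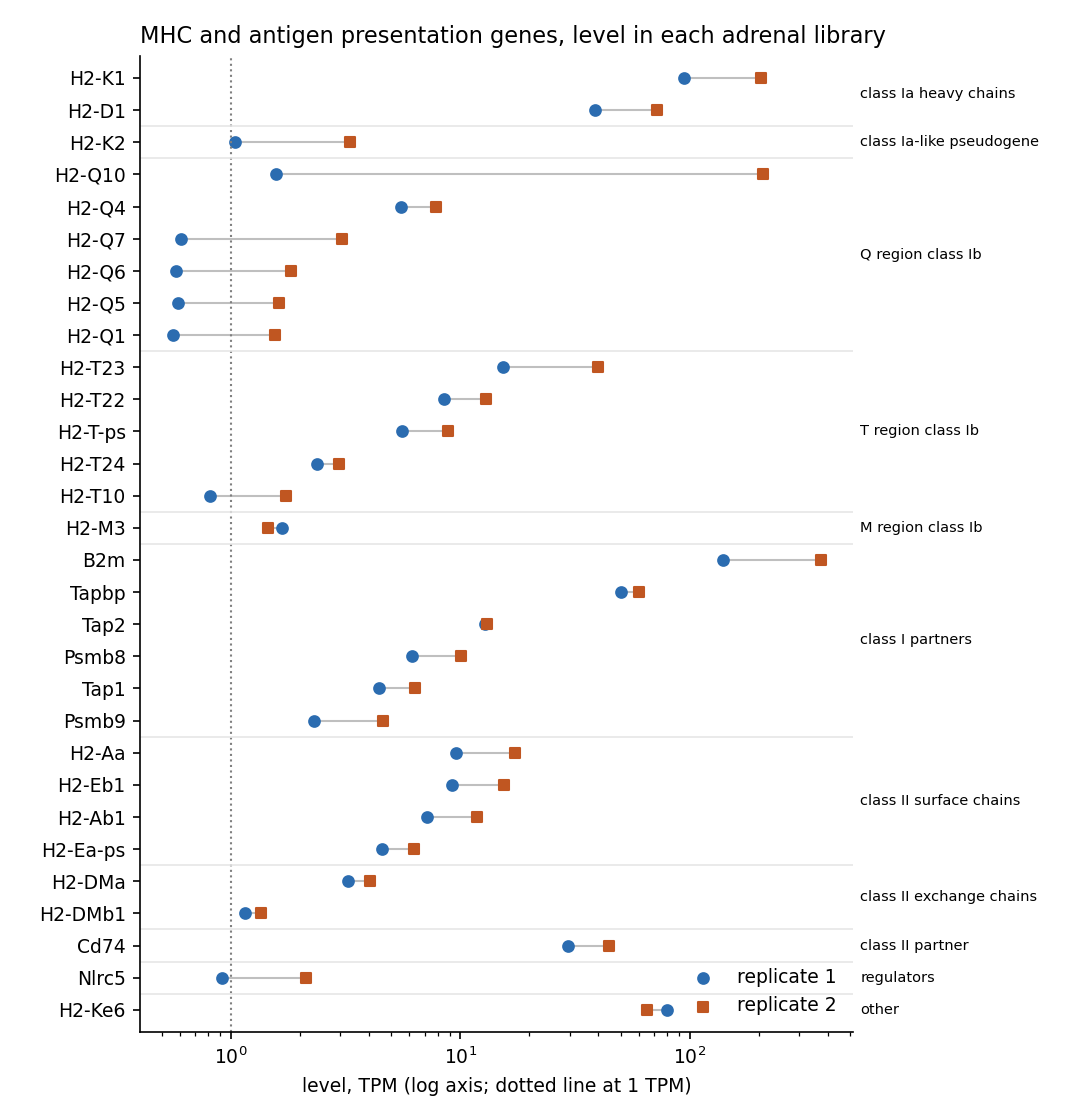
Level of each member averaging 1 TPM or more, in replicate 1 (circles) and replicate 2 (squares), on a log axis, grouped by role; the grey line joins the libraries and the dotted line marks 1 TPM. All but H2-M3 and H2-Ke6 lie further right in replicate 2, and H2-Q10 spans from 1.57 to 208.3 TPM.

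The classical class I heavy chains H2-K1 and H2-D1 present peptides to CD8 T cells. H2-K1 (ENSMUSG00000061232.16, mm10 chromosome 17, 33996017 to 34000347, minus strand) was at 94.8 TPM in replicate 1 and at 204.7 TPM in replicate 2. H2-D1 (ENSMUSG00000073411.11, chromosome 17, 35262730 to 35267499, plus strand) was at 38.8 and 71.9 TPM. H2-K1 exceeded H2-D1 in TPM in both libraries, by 2.45-fold and 2.85-fold. In counts the excess was smaller, 2943 against 2438 in replicate 1 and 6417 against 4480 in replicate 2. Transcripts not annotated as protein-coding held 50.6% and 48.8% of H2-K1 TPM, against 6.62% and 8.87% for H2-D1. The pair held 74.3% of all class I chain TPM in replicate 1 and at 48.2% in replicate 2.

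H2-Q10 encodes a secreted class I molecule known as a product of the liver. It lies on chromosome 17 from 35470089 to 35474563 (ENSMUSG00000067235.14) and was at 1.57 TPM in replicate 1, from 96.9 counts, and 208.3 TPM in replicate 2, from 10070 counts. Its share of class I chain TPM was 0.874% in replicate 1 and 36.3% in replicate 2, where it passed H2-K1. In a second quantification of the same libraries by the authors it was at 3.64 and 311.2 TPM. The level of H2-Q10 thus differed between the libraries in the direction of the hepatocyte markers. H2-Q10 amounted to 9.63% of the Alb TPM in replicate 1 and to 1.74% in replicate 2. The replicate 1 value rests on the 96.9 counts of H2-Q10, and the second quantification gave the gene 1.76 times as many counts there. Why the 2 ratios differed was not tested.

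H2-Q10 is a close paralog of the classical genes, so a stretch near the start of the first extracellular domain is shown to give the bases that reads can use to tell the 3 genes apart. It was cut from the GENCODE M21 transcripts H2-K1-205 (coding bases 64 to 153), H2-D1-202 and H2-Q10-201 (both coding bases 73 to 162). The stretch was picked, among the 90-base stretches scanned, for the most positions where H2-Q10 differs from both others. H2-Q10 thus differs from them more here than over the aligned coding sequence. Capitals mark those positions, 12 of 90.
H2-K1: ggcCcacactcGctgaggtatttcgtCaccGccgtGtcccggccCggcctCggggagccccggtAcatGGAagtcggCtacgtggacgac
H2-D1: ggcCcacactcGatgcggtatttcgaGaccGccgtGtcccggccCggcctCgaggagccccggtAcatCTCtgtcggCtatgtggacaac
H2-Q10: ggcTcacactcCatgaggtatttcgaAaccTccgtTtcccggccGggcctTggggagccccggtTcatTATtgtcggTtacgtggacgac
In this stretch H2-Q10 differed from H2-K1 at 15 positions and from H2-D1 at 16, and H2-K1 differed from H2-D1 at 11. Over the aligned coding sequence H2-Q10 was 87.8% identical to H2-K1 and 89.6% identical to H2-D1. These are reference letters. The CAST/EiJ haplotype is not in the reference, and how its differences changed the assignment of reads was not tested.

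The other Q region genes were low. H2-Q4 was at 5.55 TPM in replicate 1 and at 7.88 TPM in replicate 2. H2-Q6 and H2-Q7, which encode the Qa-2 antigens, were at 0.58 and 1.84 TPM and at 0.61 and 3.07 TPM. H2-Q1 was at 0.56 and 1.56 TPM, H2-Q5 at 0.59 and 1.62 TPM, and H2-Q2 at 0.55 and 0.65 TPM. The pseudogene H2-K2, beside H2-K1, was at 1.04 and 3.31 TPM. All 7 lay above their replicate 1 value in replicate 2, and H2-Q4 was the only Q region gene besides H2-Q10 to reach 1 TPM in both.

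Among the T region genes, H2-T23, which encodes Qa-1 and shows class I leader peptides to receptors of natural killer cells, was highest at 15.4 and 40.0 TPM. H2-T22, a ligand of some gamma-delta T cell receptors, was at 8.52 and 13.0 TPM, and its near relative H2-T10 at 0.81 and 1.75 TPM. The pseudogene H2-T-ps was at 5.59 and 8.86 TPM, H2-T24 at 2.39 and 2.96 TPM, and H2-Bl at 0.27 and 0.82 TPM. H2-T3 had 0 counts in both libraries, which allows up to 3 counts in each.

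Of 14 M region genes, only H2-M3, which presents peptides that begin with formyl-methionine, reached 1 TPM, at 1.68 and 1.45 TPM. H2-M9 had 10 and 4 counts. The H2-M10 genes, known from vomeronasal neurons, were all listed at 0 counts, 7 genes including 1 pseudogene, as were H2-M1, H2-M6-ps and H2-M11. H2-M2 and H2-M5 had 3 counts or fewer.

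B2m, the shared light chain of class I (ENSMUSG00000060802.8, chromosome 2, 122147686 to 122153083), had 139.7 TPM in replicate 1 against 373.0 TPM in replicate 2. Relative to the summed class I chains it was 0.777 in replicate 1 and 0.650 in replicate 2, and without H2-Q10 in the sum it was 0.784 and 1.02. The peptide-loading factor Tapbp, or tapasin, was at 50.2 and 59.9 TPM. The transporter subunits were unequal in gene TPM: Tap2 was at 12.8 and 13.2 TPM and Tap1 at 4.44 and 6.36 TPM. Most of the Tap2 TPM, 84.1% and 88.7%, was on a transcript annotated as retaining an intron, Tap2-202. Transcripts not annotated as protein-coding held 35.5% and 17.96% of Tap1 TPM. The most abundant protein-coding transcripts had the reverse order, Tap1-206 at 2.8 and 4.88 TPM and Tap2-201 at 1.76 and 1.49 TPM. In the second quantification Tap2-202 held less of the Tap2 TPM, 64.2% and 66.3%.

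The immunoproteasome subunits Psmb8 and Psmb9, which replace the standard subunits Psmb5 and Psmb6 after interferon exposure, were at 6.16 and 10.08 TPM and at 2.32 and 4.60 TPM. Psmb8 was 0.0569 of Psmb5 in replicate 1 and 0.129 in replicate 2. Psmb9 was 0.0263 and 0.0570 of Psmb6. For the other inducible pair, Psmb10 was 0.227 and 0.264 of Psmb7. The standard subunits exceeded their inducible counterparts in both libraries. Psmb5, Psmb6, Psmb7 and Psmb10 were named for these ratios after their values were seen.

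The class II surface chains were below the classical class I chains in both libraries. H2-Aa, the alpha chain of I-A (ENSMUSG00000036594.15, chromosome 17, 34282744 to 34287823), had 9.62 TPM in replicate 1 against 17.4 TPM in replicate 2. The partner chain H2-Ab1 was at 7.14 and 11.9 TPM, and H2-Eb1, the beta chain of I-E, at 9.26 and 15.6 TPM. The 3 genes lay within 1.5-fold of each other in each library. The invariant chain Cd74 (ENSMUSG00000024610.15, chromosome 18, 60803848 to 60812652) was at 29.4 and 44.7 TPM, 3.39 and 2.99 times the mean of these chains.

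The I-E alpha gene is listed as H2-Ea-ps, since the haplotype of C57BL/6 carries a deletion that silences it. It nevertheless had 137 counts in replicate 1 and 184 in replicate 2, or 4.55 and 6.27 TPM, 0.491 and 0.402 of H2-Eb1. Which parental chromosome these reads came from cannot be told apart in these tables. Of the H2-Eb1 TPM, 62.4% and 63.9% was on H2-Eb1-205, a transcript annotated for nonsense-mediated decay. H2-Eb2 had 2 and 0 counts.

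The chains that exchange peptides on class II were low. H2-DMa was at 3.24 and 4.03 TPM, H2-DMb1 at 1.15 and 1.36 TPM, and H2-DMb2 at 0.33 and 0.68 TPM. H2-Oa and H2-Ob, which restrain H2-DM and mark B cells, had 1 and 1 counts and 5 and 8 counts. The pseudogenes H2-Pa and H2-Pb had 0.

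Summed over 32 chain genes, pseudogenes included, class I was at 179.7 TPM in replicate 1 and at 573.8 TPM in replicate 2. Over the 24 annotated as protein-coding it was at 171.4 and 557.4 TPM. Over 12 chain genes, pseudogenes included, class II was at 35.4 and 57.4 TPM. On the log2 scale class I over class II was 2.34 and 3.32, or 2.83 ± 0.69 (SD, n = 2), about 4 times the spread between the libraries. Without H2-Q10 the ratio was 2.33 and 2.67, or 2.50 ± 0.24, an alternative chosen after seeing the data. In bulk tissue fewer cells of a type and less RNA per cell cannot be told apart.

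**Figure D2:**
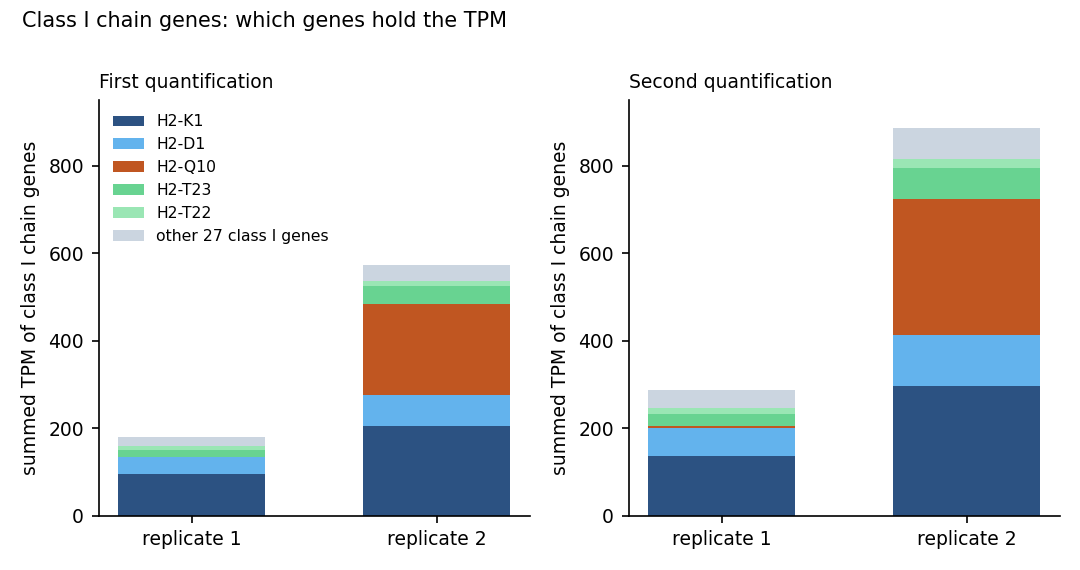
Summed TPM of the class I chain genes in each library, stacked by gene, in the first (left) and second (right) quantification; bars start at 0. H2-Q10 is a thin band in replicate 1 and holds 36.3% of the first-quantification sum in replicate 2.

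The transcriptional regulators were scarce. Nlrc5, the activator of class I genes, was at 0.92 TPM in replicate 1 and at 2.14 TPM in replicate 2, and Ciita, the activator of class II genes, at 0.43 and 0.60 TPM. H2-Ke6 is an H2- gene by name only: it encodes a hydroxysteroid dehydrogenase. It was at 79.9 and 64.9 TPM, and 86.4% of its exon bases also lie in exons of Gm20427 on the same strand, so its reads are uncertain.

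The libraries were compared gene by gene with a two-sided exact binomial test on rounded counts, scaled by the TMM method and adjusted by the Benjamini-Hochberg method over 19801 genes with at least 10 counts. With 1 library on each side, only counting error enters the test, which sets 1 library against the other and says nothing of a condition. Of the 54 genes, 36 had enough counts. Among them 30 passed as higher in replicate 2, where 20.7% of all tested genes did, and 0 passed as lower, where 18.4% of all tested genes did. At least 2-fold higher were 18 of the 36, against 8.56% of all tested genes, and 0 were at least 2-fold lower, against 2.29%. At an unadjusted p of 0.05, too, 0 members were lower in replicate 2. The median log2 ratio of the 36 was 0.98 and that of all tested genes -0.01.

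**Figure D3:**
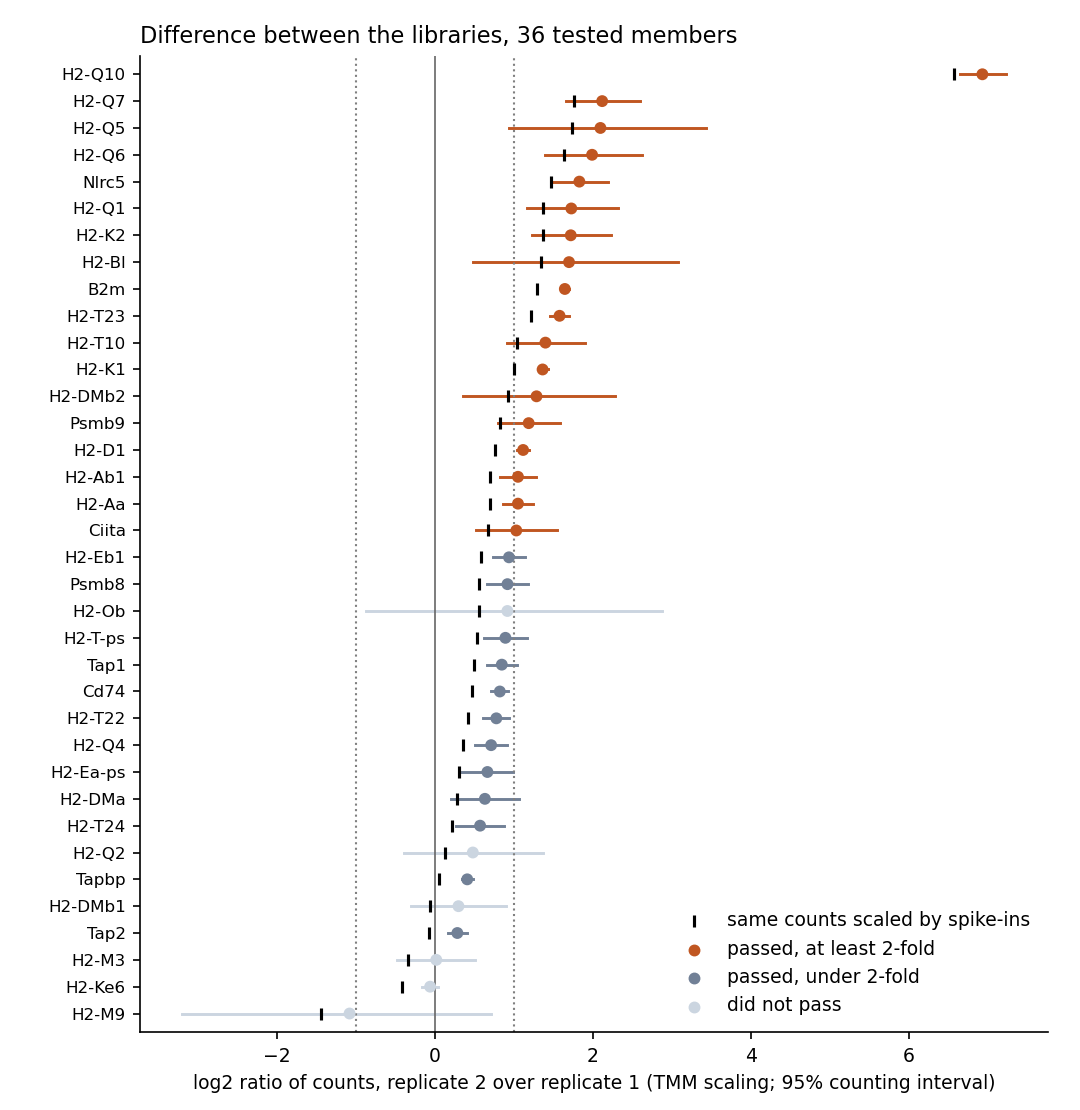
Log2 ratio of counts, replicate 2 over replicate 1, for the 36 tested members, with 95% counting intervals; colour gives the call, the black tick the same ratio scaled by spike-ins, and dotted lines mark 2-fold. Of these, 18 are called higher, 0 lower, and H2-Q10 lies at 6.94.

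Within class I, 15 of 18 tested chain genes, pseudogenes included, passed as higher in replicate 2 and 11 were at least 2-fold higher. Of all tested genes, 20.7% and 8.56% were. H2-Q10 was 122-fold higher (95% counting interval 100.3 to 151), the largest ratio of any member under TMM scaling. H2-K1 was 2.57-fold higher (2.46 to 2.69), H2-D1 2.17-fold (2.06 to 2.28) and H2-T23 2.99-fold (2.74 to 3.25). The other Q region genes called were H2-Q7 at 4.34-fold, H2-Q5 at 4.28-fold, H2-Q6 at 3.97-fold and H2-Q1 at 3.31-fold, all from under 200 counts per library. H2-K2, H2-Bl and H2-T10 were called as well, at 3.29, 3.24 and 2.64-fold. In the second quantification H2-Bl was at 0.01 on the log2 scale and did not pass, and the log2 ratio of H2-Q7 was 1.404 in place of 2.12, that of H2-Q5 1.42 in place of 2.10, that of H2-Q10 6.185 in place of 6.94 and that of H2-Q1 4.15 in place of 1.73. H2-M3 was at 1.01-fold (0.717 to 1.42), and this interval excludes a 2-fold difference.

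B2m was 3.13-fold higher in replicate 2 (3.01 to 3.25). The loading and processing genes differed less: Psmb9 was 2.28-fold higher, Psmb8 1.89-fold, Tap1 1.80-fold, Tapbp 1.33-fold and Tap2 1.22-fold. All 6 class I partners passed as higher, where 20.7% of all tested genes did. Scaled by spike-ins, Tapbp no longer passed and Tap2 was at -0.07 on the log2 scale, and with total counts Tap2, at 0.05, did not pass. Nlrc5 was 3.55-fold higher (2.79 to 4.56) and Ciita 2.04-fold higher (1.43 to 2.93). These are ratios of scaled counts, and in TPM the Nlrc5 ratio was 2.33. In the second quantification Nlrc5 was at 1.475 and 2.283 TPM, with a log2 ratio of counts of 1.79.

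Class II moved less than class I in sum. H2-Aa and H2-Ab1 were each 2.07-fold higher, H2-Eb1 1.92-fold, H2-Ea-ps 1.58-fold and Cd74 1.77-fold. In summed counts class II was 1.90-fold higher (1.77 to 2.05) and class I 3.84-fold higher (3.75 to 3.94), or 2.35-fold (2.29 to 2.41) without H2-Q10. These are counting intervals on sums, with no test over the group. Of the exchange chains, H2-DMb2 was 2.44-fold higher from 15.1 and 30.8 counts, H2-DMa 1.55-fold higher, and H2-DMb1, at 1.23-fold, and H2-Ob, at 1.89-fold, did not pass. With spike-ins H2-DMb2 no longer passed, at 0.93 on the log2 scale, and H2-DMa passed neither with spike-ins, at 0.27, nor with total counts, at 0.40. H2-Ke6 did not pass at 0.958-fold (0.896 to 1.02), and neither did H2-Q2 nor H2-M9, at 1.39 and 0.472-fold. In the second quantification H2-Q2 passed, at 1.42 on the log2 scale.

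The scaling shifts all ratios together. With total counts the median of the 36 genes was 0.75, and with spike-ins 0.63, while the median over all genes averaging 1 TPM or more moved from -0.01 to -0.25 and -0.37. The number at least 2-fold higher was 13 with total counts, where H2-D1, H2-Aa, H2-Ab1, Psmb9 and Ciita were under 2-fold, and 12 with spike-ins, where H2-DMb2 dropped out as well. With spike-ins H2-T24 and H2-Ea-ps no longer passed, at 0.21 and 0.31 on the log2 scale. The share of all tested genes called was counted with TMM only, so the counts under other scalings have no such share beside them.

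Markers of the cells that carry class II were set beside these ratios. The 8 macrophage markers summed to 108 TPM in replicate 1 and to 116 TPM in replicate 2. Lyz2 was at 39.1 and 32.0 TPM and C1qb at 17.7 and 19.6 TPM. Of the 8, 6 passed as higher and 0 were 2-fold higher, against 20.7% and 8.56% of all tested genes. Of 6 dendritic cell markers only Zbtb46 reached 1 TPM, at 5.90 and 4.78 TPM, with Itgax at 0.32 and 0.34 TPM, while Clec9a, at 0.02 and 0.19 TPM, was called higher, 8.26-fold from 2 and 14.0 counts. The 5 B cell and 6 T and NK cell markers were all under 1 TPM, led by Cd79b, at 0.18 and 0.41 TPM, and Cd79a, at 0.19 and 0.39 TPM, and by Cd4, at 0.23 and 0.33 TPM, and Nkg7, at 0.15 and 0.35 TPM. Cd4 was called higher, 2.36-fold from 14 and 28 counts, and 0 of 5 B cell markers passed. The 6 endothelial markers summed to 241 and 191 TPM, with Egfl7 at 64.7 and 53.7 TPM and Plvap at 60.5 and 45.1 TPM. All 6 hepatocyte and all 4 Kupffer cell markers were called higher in replicate 2, against 8.56% of all tested genes. All 4 muscle markers were called lower, against 2.29%. The part of liver or muscle RNA in the ratios of the MHC genes was not tested.

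Other genes of the pathway, from lists that share no gene with the members, moved less. Of 56, 54 were tested, with a median log2 ratio of 0.17. Among them 25 passed as higher in replicate 2 and 8 as lower, where 20.7% and 18.4% of all tested genes did. The chaperones that fold class I heavy chains were abundant: Calr was at 198.6 and 263.9 TPM, Hspa5 at 189.96 and 256.8 TPM, Canx at 146.2 and 138.4 TPM and Pdia3 at 112.2 and 130.7 TPM. The endosomal proteases Ctsb and Ctsd were at 286.8 and 248.9 TPM and at 287.4 and 224.5 TPM. At 2-fold, 4 of the 54 were called higher and 1 lower, against 8.56% and 2.29% of all tested genes. Azgp1, a secreted protein with a class I fold, went from 0.64 to 212.2 TPM, 434-fold, and Ctsl, a protease, from 82.4 to 161.9 TPM, 2.24-fold. Cd86 and Raet1e were called higher at under 1 TPM, and Procr, the endothelial protein C receptor, was lower, at 20.8 and 8.19 TPM. Of the regulators, the interferon-responsive Irf1 was at 9.34 and 12.3 TPM, and Ifng had 0 counts in both libraries. Irf1 and Ifng were named after their values were seen.

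Sequence shared among paralogs bears on these values. The deposited posterior SD of a count describes only how reads shared between genes were divided, and it was 0 for B2m, Cd74, Ciita and the class II surface chains. Among the 32 members with at least 10 counts in each library it was over 1% of the count in both libraries for 9, with H2-Q1 at 15.0% and 7.53%, H2-DMb2 at 11.4% and 7.11%, and H2-Q6 at 10.7% and 6.08%. H2-Q5 and H2-Bl, with fewer counts in replicate 1, were at 17.0% and 9.59% and at 15.1% and 9.33%. For H2-K1 it was 0.073% and 0.046%, although 9.63% of its 50-base windows occur in another gene. For H2-Q10 it was 3.25% in replicate 1 and 0.047% in replicate 2, with 19.0% of windows shared, most with H2-Q7.

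**Figure D4:**
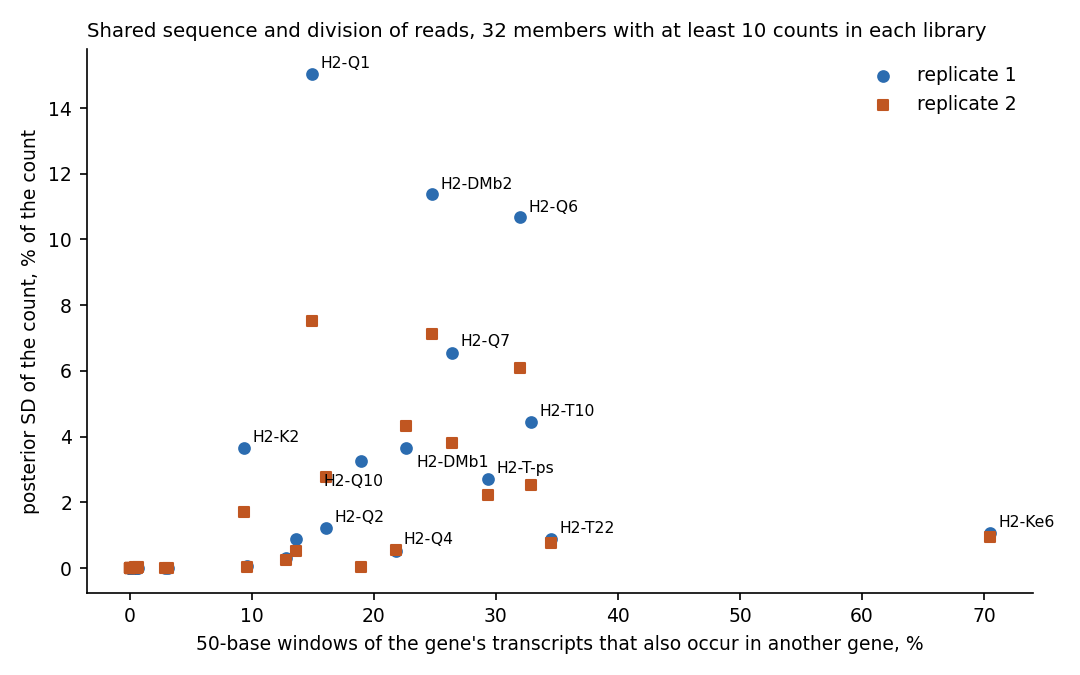
Share of each gene's 50-base transcript windows found in another gene (horizontal) against the posterior SD as percent of the count (vertical), for 32 members with at least 10 counts in each library; circles are replicate 1 and squares replicate 2. H2-Q1, H2-DMb2 and H2-Q6 lie highest, and H2-Ke6 shares 70.5% of its windows.

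In the second quantification B2m was at 198.1 and 514.4 TPM, H2-K1 at 136.8 and 297.4 TPM and H2-D1 at 64.2 and 116.0 TPM. H2-Ke6 was at 180.7 and 138.9 TPM there, above H2-K1 in replicate 1, where the first quantification had it below. B2m was given fewer counts there, 0.727 of the first in both libraries, while protein-coding genes with at least 100 counts had a median of 1.12 and 1.11. For H2-Q1 the quantifications differed most, since the second gave 0.246 TPM in replicate 1, below the first, and 5.39 TPM in replicate 2, above it. The retained-intron transcript H2-K1-215 held 44.6% and 44.3% of H2-K1 TPM in the first quantification but 13.6% and 26.2% in the second. Its first-quantification share came from 517 of 2943 H2-K1 counts in replicate 1 and 1102 of 6417 in replicate 2. The TPM of the gene therefore depends on the division among transcripts, as do the levels of single transcripts. Exons on the other strand overlap some members, and whether counting used strand is not given in the sources used here: 10.44% of H2-DMa exon bases lie opposite Brd2, which had 6414 and 5072 counts, and Tap1 and Psmb9 share 212.

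Promoter letters are shown because class I and class II genes are known to share an upstream module of X and Y boxes through which Nlrc5 and Ciita act. Classical class I genes are also known for a kappaB site and an interferon-stimulated response element (ISRE). RefSeq start windows of GRCm38.p6 were found for 37 of 54 members and searched over 250 bases before the start, on both strands, for GAANNGAAA (ISRE core), ATTGG (Y box), TGACG (X2 core), GGGANTNCC (kappaB) and GCAACNG (RFX X1 core). Overlapping matches were kept. The 220 bases before the start of 4 genes follow, 5' to 3' on the strand of the gene, with matches in capitals: B2m (chr2:122147467-122147686, plus strand), H2-K1 (chr17:34000348-34000567, minus), H2-Q10 (chr17:35469869-35470088, plus) and H2-Aa (chr17:34287824-34288043, minus).
B2m: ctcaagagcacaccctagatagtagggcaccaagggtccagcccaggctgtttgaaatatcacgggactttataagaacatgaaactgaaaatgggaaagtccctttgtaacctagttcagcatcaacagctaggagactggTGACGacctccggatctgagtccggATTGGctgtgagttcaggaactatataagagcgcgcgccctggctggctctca
H2-K1: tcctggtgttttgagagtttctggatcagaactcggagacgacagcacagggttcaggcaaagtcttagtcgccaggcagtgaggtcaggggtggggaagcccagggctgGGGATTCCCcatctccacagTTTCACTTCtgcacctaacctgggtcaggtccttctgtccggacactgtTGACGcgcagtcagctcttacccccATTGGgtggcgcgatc
H2-Q10: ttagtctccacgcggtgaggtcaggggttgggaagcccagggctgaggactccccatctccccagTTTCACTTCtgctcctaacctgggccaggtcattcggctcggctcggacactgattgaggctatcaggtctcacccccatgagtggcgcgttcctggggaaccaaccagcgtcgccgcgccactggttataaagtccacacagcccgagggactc
H2-Aa: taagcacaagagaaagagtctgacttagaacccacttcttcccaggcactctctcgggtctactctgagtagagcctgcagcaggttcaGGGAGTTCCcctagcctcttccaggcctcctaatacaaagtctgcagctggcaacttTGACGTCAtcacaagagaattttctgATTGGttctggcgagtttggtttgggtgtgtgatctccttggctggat
The H2-K1 window held the kappaB letters, the ISRE core on the opposite strand, the X2 core and the Y box, in that order towards the start. The H2-Q10 window, of the member with the largest difference between the libraries, held the ISRE core and none of the other letters searched. Other windows also held 1 kind of match, such as H2-T23 and H2-Q2 with the Y box alone. Of the letters searched, B2m held the X2 core and the Y box, and H2-Aa the kappaB letters, the X2 core and the Y box. Looser forms were not searched. The B2m letters gaaactgaaa and ggaaagtccc, which resemble the ISRE and kappaB patterns but are longer, were therefore not counted.

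Of the 37 members with a window, 33 held the Y box letters, against 37.5% of all 27025 genes with windows, 15 held the X2 core, against 19.8%, 8 the ISRE core, against 7.30%, 7 the kappaB letters, against 3.87%, and 3 the RFX X1 core, against 11.5%. The X2 core and the Y box started 25 bases apart in B2m, H2-K1, H2-D1 and H2-M3 and 26 bases apart in H2-Aa. A pair at 25 or 26 bases stood in 5 of 37 members and 0.163% of all genes, a spacing chosen after the sequences were seen. These 5 genes included H2-M3, at 1.01-fold between the libraries, as well as B2m at 3.13-fold. The starts of Tap1 and Psmb9 lie 225 bases apart on opposite strands, and both windows held the same X2 core. These shares count exact letters only, so a site with other letters or spacing was missed. The H2-Aa letters gcaactt just before the X2 core, for example, were not counted as the RFX X1 core. Low shares of a pattern therefore do not show that the members lack such sites. A match is a run of letters, and binding was not measured.

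**Figure D5:**
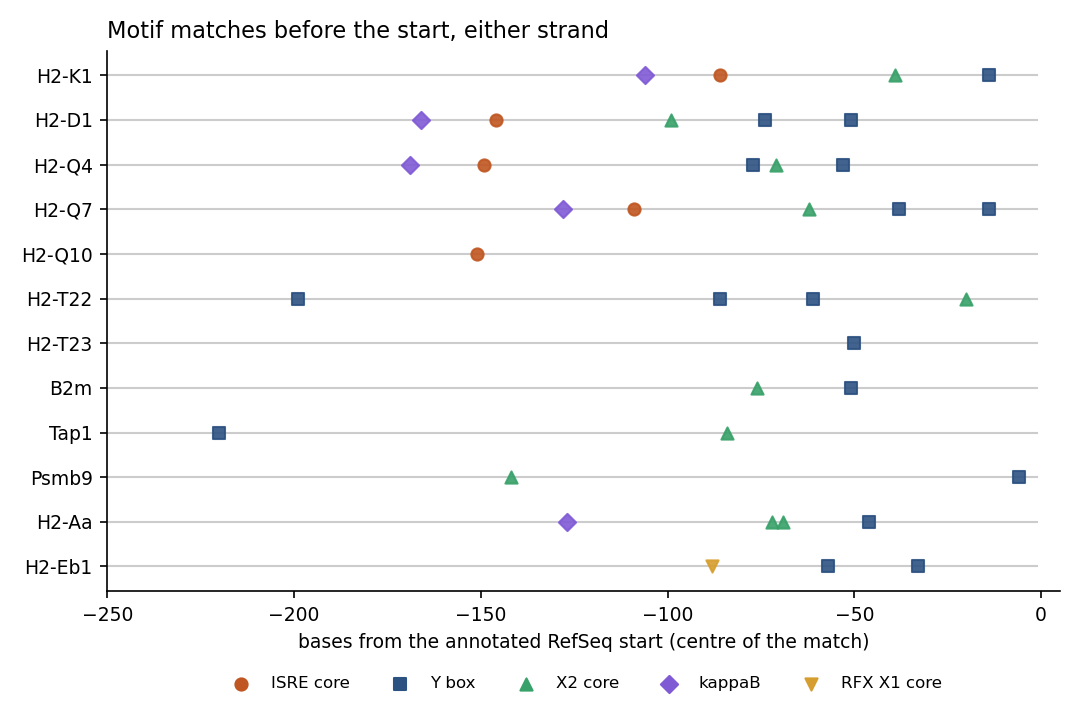
Position of motif matches in the 250 bases before the RefSeq start of 12 members, either strand; each symbol is 1 match, placed at its centre. H2-K1, H2-D1, H2-Q4 and H2-Q7 hold 4 kinds of match, and H2-Q10 and H2-T23 hold 1.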

How the data were processed

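Total RNA-seq of 2 adrenal libraries was used, from the tables the authors deposited. Per the deposited text files, all tables used mm10 and annotation M21. The names of aligner and quantifiers were not given in the sources used here. The authors' first quantification gave expected counts, posterior mean counts and TPM per gene and, per the file headers, the percent of a gene's TPM on each transcript. Its posterior SD of the count, recorded as a score, is also the authors' value per the file headers. The authors' second quantification gave estimated counts and TPM per transcript, summed here per gene. TPM of the first is relative to all listed sequences, including short RNAs and spike-ins.

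Symbols came from the second tables and identifiers all matched GENCODE M21. Expected counts were rounded for tests. Libraries were scaled by TMM (edgeR 4.0.16), with total counts, spike-ins and DESeq2 1.42.0 size factors as alternatives. Python 3.11.15, scipy 1.17.1 and matplotlib 3.10.9 were used, and the test was tested on simulated data. Intervals cover counting error only. Depth was 34987819 and 34835147 counts on annotated genes. Entries that name no gene, spike-ins included, stayed out of library sizes and tests.

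The genes given in full are those averaging 1 TPM or more by either quantification, H2-Q10, and those called. Of other pathway genes, the 8 most abundant and those called are named, and of each marker list the 2 most abundant. Members and lists were chosen with earlier results of these data known.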

Additional observations from a re-analysis of the deposited data

How the results depend on the processing

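Under total counts, spike-ins, DESeq2 size factors, no filter on low counts and the second quantification, the count of members at least 2-fold higher in replicate 2 ranged from 12 to 18, and 27 were at least 1.5-fold higher. Members that passed as higher numbered 24 to 30. Shares of all tested genes were counted with TMM scaling of the first quantification only. With total counts and with spike-ins 1 member, H2-Ke6, passed as lower where 0 did with TMM. The log2 ratio of H2-M3 was -0.22 with total counts and -0.34 with spike-ins, and with spike-ins H2-DMb1 was at -0.06 and Tap2 at -0.074. Among single members, 36 of 36 kept their direction and their side of the test's threshold, at any fold, with DESeq2 size factors, 34 with the second quantification, 32 with total counts and 27 with spike-ins. The class I sum, at 1.94 on the log2 scale, was 1.71 with total counts, 1.58 with spike-ins, 1.88 in the second quantification and 1.23 without H2-Q10, and the class II sum, at 0.93, was 0.70 with total counts and 0.57 with spike-ins. Total counts and spike-ins change only the scaling of the same counts, and leaving out H2-Q10 removes its counts, while for the second quantification the cause was not tested.

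The rule fixed for shared reads, a posterior SD over 1.5 times the square root of the count, listed 0 members, since that SD holds no counting error. Over the same 32 members with at least 10 counts in each library, a posterior SD over 1% of the count listed 9 and one above 0 listed 17, both chosen after seeing the data. Over nuclear protein-coding genes, TPM of the second quantification was a median 1.72 times the first in replicate 1 and 1.66 times in replicate 2. Relative to that median, no member with a TPM of at least 1 differed 2-fold between the quantifications in both libraries. Beyond 1.5-fold 1 did (H2-DMb1), and at 2-fold leaving out 1 library each gave 1 to 2. Members detected numbered 24 to 33 over the alternatives, and class I over class II 2.34 to 3.32 when 1 library was left out. No paired analysis was possible because the series has 1 group. Depth limits the members under 10 counts, for which a difference was not detectable.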
